A study of Mus musculus with 24 samples.

Results

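The difference between the radiation responses of 2 groups of mice was measured in whole blood by comparing 4 groups of arrays. The groups were Gadd45aWT and Gadd45aKO male C57BL/6J mice, each given 0 or 7 Gy of x-rays, with blood drawn into PAXgene solution by cardiac puncture 24 h later. All 24 of the 24 arrays of the series were used, grouped by their titles: 5 WT at 0 Gy, 5 WT at 7 Gy, 5 KO-labelled at 0 Gy and 9 KO-labelled at 7 Gy. The quantity described is the interaction, the KO-labelled response (7 Gy minus 0 Gy) minus the WT response, on the log2 scale. An interaction above 0 means that a gene rose more, or fell less, in the KO-labelled mice, and one below 0 means that it rose less or fell more.

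Gadd45a is a small stress protein that is induced by DNA damage and growth arrest, binds PCNA and Cdkn1a, and acts on the p38 and JNK kinases. Mice without it are known for lupus-like autoimmunity, with T cells that are activated more readily. Blood loses B cells, T cells and young red cells soon after whole-body irradiation, while p53 switches on Cdkn1a, Mdm2 and Phlda3 in cells that survive. Interferons act through a complex that includes STAT2 and IRF9 and binds a DNA element of paired GAAA blocks and switches on the Ifit, Oas and GTPase families, and the same pathway induces its own inhibitor Socs1. Whole blood is a mixture, so a lower value from fewer cells of a type cannot be told apart from less RNA per cell.

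Each array was 1-colour, with 25.7 to 50.9% of its probes well above background and a 75th percentile of processed signal between 652 and 2230. Values are log2 signal relative to that array's own 75th percentile, so 0 is the 75th percentile. Some arrays of a group differed no more than repeat spots on 1 array do, namely KO-labelled 0 Gy replicates 1 and 4, WT 0 Gy replicates 2 and 3, and WT 7 Gy replicates 1 and 2. Each of these pairs was averaged and counted as 1 sample, which left 4, 4, 4 and 9 samples in the WT 0 Gy, WT 7 Gy, KO-labelled 0 Gy and KO-labelled 7 Gy groups. Other arrays were nearly as alike: KO-labelled 7 Gy replicates 1, 2, 4 and 8 correlated at 0.993 to 0.997, and WT 0 Gy replicates 2 to 5 at 0.99 to 0.995. Apart from WT 0 Gy replicates 2 and 3 these were counted separately, so the samples may not all be independent. The WT 7 Gy arrays fell into 2 sets: replicates 1 and 2 correlated at 0.997, replicates 3 to 5 at 0.986 to 0.994, and arrays of different sets at 0.955 to 0.966. Slides 1 to 5 each held 1 array of every group, and the sixth slide held KO-labelled 7 Gy replicates 6 to 9. The submitters describe 5 or 9 independent experiments but no animal is named for an array, so p-values reflect only how these samples vary, which may be technical in part. As a check of the tissue, the red cell genes Fech and Slc25a37 and the neutrophil gene S100a8 lay above the 75th percentile on every array.

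The targeted gene was examined first. The Gadd45a probe (chr6:66985376-66985435, mm9) read 0.29, 0.72, 0.56, 0.83 and 0.86 in the 5 WT arrays at 0 Gy and 0.58, 0.28, 0.52, 0.67 and 0.60 in the KO-labelled ones. After 7 Gy it read -1.09, -0.80, -1.63, -1.42 and -1.09 in WT, and its lowest, median and highest values in the 9 KO-labelled arrays were -0.69, 0.12 and 0.32. The groups overlapped at 0 Gy, and every KO-labelled array was above every WT array at 7 Gy. The interaction was +1.42 (SE 0.297, adjusted p = 0.00606, limma), with a fall of 1.92 in WT (SE 0.226) and a fall by 0.51 in the KO-labelled mice (SE 0.192, adjusted p = 0.036). The probe was not lower in the arrays labelled KO, whether it lies in the deleted part is not given in the sources used here, and the genotype is therefore called by its label throughout.

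Of 15787 genes tested, 1965 (12.4%) had an interaction at an adjusted p below 0.05 in limma, 401 higher (2.54%) and 1564 lower (9.91%). The KO-labelled and WT mice differed little before irradiation, with 15 genes higher in KO-labelled mice (0.095%) and 1 lower (0.00633%), 16 in all (0.101%). At 7 Gy they differed in 3100 genes (19.6%), 645 higher (4.09%) and 2455 lower (15.6%). The response to irradiation alone was called for 20.5% of genes in WT (8.55% higher, 11.9% lower) and 46.2% in KO-labelled mice (12% higher, 34.2% lower), with more KO-labelled than WT samples behind the second count. Among the 1564 genes with a lower interaction, 862 had a positive WT change and a negative KO-labelled change, 480 were negative in both and 222 positive in both. Among the 401 with a higher interaction, 162 were negative in both, 148 were negative in WT and positive in KO-labelled, and 91 were positive in both. The label difference was larger at 7 Gy than at 0 Gy for 1412 of the lower and 280 of the higher genes. Over all genes 43.7% had an interaction of the same sign on all 5 slides (15.7% positive, 28% negative), against 382 of the 401 higher and 1370 of the 1564 lower genes, whose calls rest on the same arrays.

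The balance of the calls depended on how arrays were scaled. The median interaction over all genes was -0.26, against -0.04 when arrays were centred on their median and 0.11 when the 75th percentile was taken over all probes. Median scaling called 629 higher and 935 lower, quantile normalization 352 and 514, the 75th percentile over all probes 778 and 487, and the values in the authors' deposited table gave 149 and 260. For some lists the median below is therefore also given relative to the all-gene median. The other list medians are as fitted and hold this shift. Values within a slide hold that slide's own shift. The all-gene median was -0.528 on slide 2 and between -0.231 and -0.0445 on the other slides. With the replicate number as a block the count was 6231 (2157 higher, 13.7% of genes, and 4074 lower, 25.8%). This block is the slide for replicates 1 to 5, and KO-labelled 7 Gy replicates 6 to 9 have no partner in it. Counts of list members under the block are to be read against those shares, and counts under median scaling against 3.98% higher and 5.92% lower.

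The calls also depended on which WT 7 Gy arrays were used. Without WT 7 Gy replicates 3 to 5, 40 genes were called (0.253%), all lower, whereas without replicates 1 and 2 the count was 2488. Averaging all arrays of a group that correlated above 0.99 left 2 samples in each WT group and called 0 genes (1585 at an unadjusted p below 0.05 in limma), and normexp background correction also called 0 (857). Leaving out 1 array at a time gave 1152 to 3066 calls, the lowest without WT 7 Gy replicate 5 and the highest without KO-labelled 7 Gy replicate 9. The calls below are those of the design given above. The bar chart of calls by setting shows the counts at an adjusted p, without the settings that leave out 1 array.

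**Figure D1:**
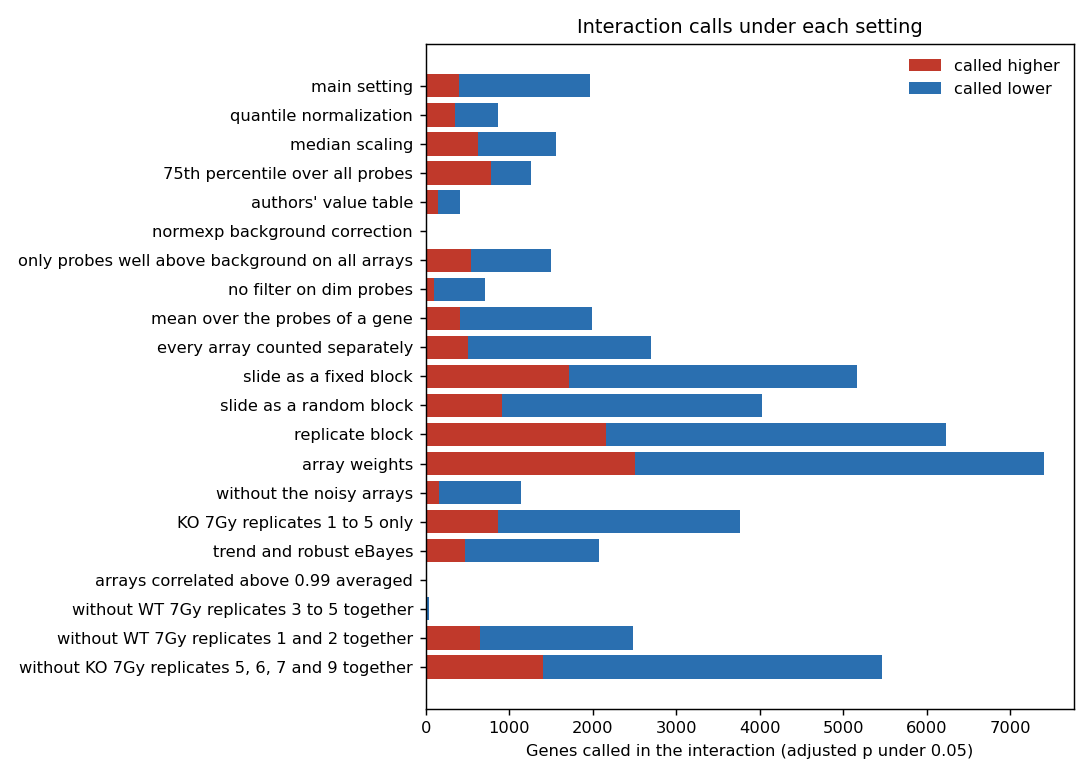
Number of genes with a called interaction under each setting (horizontal axis, number of genes; bars stack genes with a higher and a lower interaction). The design used in the text gives 401 higher and 1564 lower, while the settings range from 0 calls with normexp correction to 7400 with array weights.

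**Figure D2:**
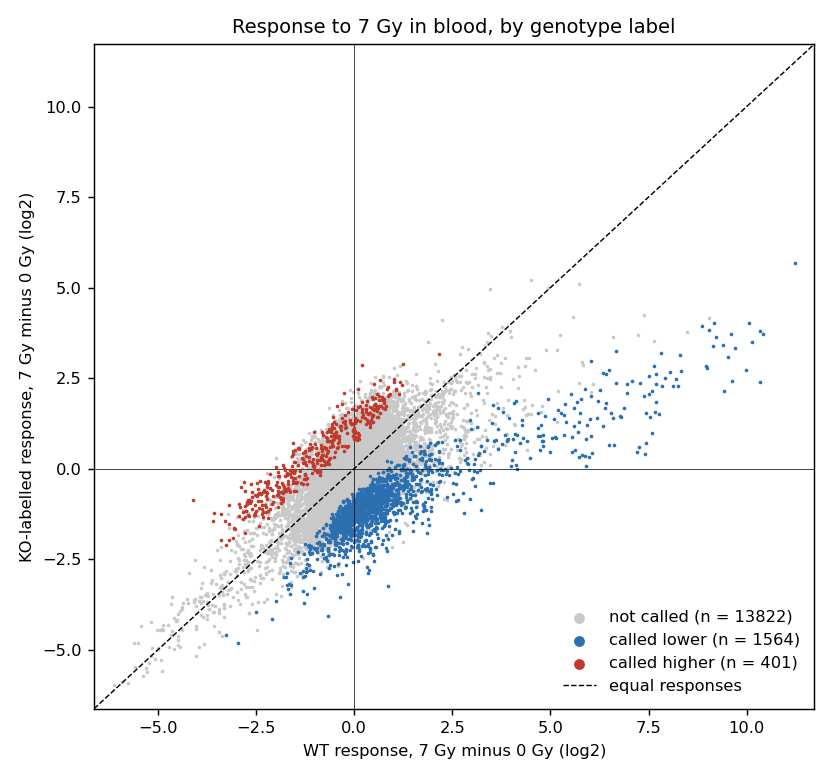
Response to 7 Gy of each of the 15787 genes in WT mice (horizontal axis, log2) against that in KO-labelled mice (vertical axis, log2), 1 point per gene, coloured by call. The 401 genes with a higher interaction lie above the dashed line of equal responses and the 1564 with a lower one below it.

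Interferon-stimulated genes were among those with lower interactions. Of 28 antiviral genes tested (Ifit, Oas, Mx and related families), 14 had a lower interaction and 0 a higher one, against 9.91% and 2.54% of all genes, and all 28 estimates were negative. Their median interaction was -1.39, or -1.13 relative to all genes, from a median WT response of +2.08 and a KO-labelled response of +0.79. The list median was negative on each of the 5 slides, from -1.91 to -0.63, and stayed between -1.64 and -0.87 over the 44 other settings. The value of -0.63 was on slide 2, where the median over all genes was -0.528. With the replicate block 18 of the 28 were lower (25.8% of all genes). Without WT 7 Gy replicates 3 to 5 the list median was -1.05. Among the regulators 5 of 23 interferon signalling genes were lower (11 with the replicate block), with a median of -0.68, and 4 of 13 interferon-inducible GTPases (9 with the block), with a median of -1.0. Without WT 7 Gy replicates 3 to 5 these medians were -0.47 and -1.27.

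The start regions of these genes are shown because they carry the element the pathway acts on. The promoters of 7 of the lower genes named here hold a match to the interferon-stimulated response element, searched on both strands as GAAA, any 2 bases and GAAA (TTTC, any 2 bases and TTTC on the other strand) in the 250 bases before the gene start (RefSeq, GRCm38.p6). The match is in capitals on the strand of the gene, with up to 20 bases on each side and none past the gene start. The last match starts 122 bases before the gene start in Ifit3, 154 in Ifit3b, 53 in Gbp7 and 24 in Irgm1. In Irgm2 it starts 64 bases before the gene start, in Socs1 77 and in Stat2 222.
Ifit3: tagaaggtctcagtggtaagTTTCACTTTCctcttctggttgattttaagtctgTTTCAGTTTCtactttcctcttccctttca
Ifit3b: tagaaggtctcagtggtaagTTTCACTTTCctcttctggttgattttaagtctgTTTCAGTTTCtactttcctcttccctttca
Gbp7: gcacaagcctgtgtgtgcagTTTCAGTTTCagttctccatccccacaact
Irgm1: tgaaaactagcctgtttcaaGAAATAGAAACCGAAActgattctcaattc
Irgm2: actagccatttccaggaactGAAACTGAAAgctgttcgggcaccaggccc
Socs1: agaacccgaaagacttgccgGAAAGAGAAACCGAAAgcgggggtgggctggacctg
Stat2: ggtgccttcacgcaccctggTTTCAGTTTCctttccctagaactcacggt

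These windows are chr19:34583353-34583436 and chr19:34607749-34607832 (+ strand) for Ifit3 and Ifit3b, chr3:142530263-142530312 (+) for Gbp7 and chr11:48871421-48871470 (-) for Irgm1. Irgm2 is at chr11:58214893-58214942 (+), Socs1 at chr16:10785584-10785639 (-) and Stat2 at chr10:128270256-128270305 (+). Ifit3 and Ifit3b hold 2 matches each and share all 84 bases shown, so the 2 genes are near copies and their probes may read both transcripts. In Irgm1 and Socs1 the 2 matches overlap, with 1 GAAA block used by both. The element was found in 9 of 19 tested antiviral genes with a promoter in the table (47.4%) 7 of 8 GTPases (87.5%) and 3 of 21 interferon signalling genes (14.3%), against 936 of all 27025 genes (3.46%). Among the members called lower it was in 4 of 9 antiviral genes, 3 of 4 GTPases and 2 of 5 signalling genes. Among genes called lower, 54 of 1103 held it (4.9%), and among those called higher 7 of 236 (2.97%). The same search found 0 matches for Oasl1, Oasl2, Irf9 and Ifi47, which were also lower, and a missing match says only that these letters are not in that window.

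Ifit3, an antiviral protein that binds Ifit1, read -5.01, -5.07, -5.11, -5.21 and -5.15 in WT at 0 Gy and -0.69, -0.35, 1.28, 1.01 and 1.28 in WT at 7 Gy. KO-labelled arrays read -3.95, -3.78, -3.67, -3.69 and -4.36 at 0 Gy, where 4 of 5 were well above background, and -1.90, -1.81 and -1.0 (lowest, median, highest) at 7 Gy. KO-labelled arrays were thus all above WT before irradiation and all below WT after it, and WT replicates 3 to 5 stood above replicates 1 and 2. Ifit3 rose by 5.88 in WT and by 2.21 in KO-labelled mice, an interaction of -3.67 (SE 0.403, adjusted p = 9.63e-05) or a 12.7-fold smaller rise. Without WT 7 Gy replicates 3 to 5 the Ifit3 interaction was -2.39.

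Socs1, which switches off the Janus kinases that interferon receptors use, rose in WT by 2.04 (SE 0.165) and changed by +0.09 (SE 0.140, adjusted p = 0.625) in KO-labelled mice. It read -3.85, -3.89, -3.74, -3.70 and -3.64 in WT at 0 Gy and -1.70, -1.48, -1.86, -1.73 and -1.67 at 7 Gy. KO-labelled arrays read -3.19, -3.34, -3.27, -3.22 and -3.48 at 0 Gy and -3.70, -3.26 and -2.93 at 7 Gy. Here both WT sets lay at the same level after irradiation, above all 9 KO-labelled arrays. The interaction was -1.95 (SE 0.217, adjusted p = 9.63e-05), negative on every slide from -2.25 to -1.43.

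Irgm1, a GTPase that acts on membranes holding intracellular microbes, followed the same order. WT arrays read -3.23, -3.21, -3.29, -3.20 and -3.17 at 0 Gy and -1.75, -1.57, -1.23, -1.18 and -1.10 at 7 Gy. KO-labelled arrays read -2.42, -2.38, -2.46, -2.42 and -2.24 at 0 Gy and -2.47, -2.21 and -1.82 at 7 Gy. The KO-labelled groups at 0 and 7 Gy overlapped, and neither reached the WT 7 Gy values. Its interaction was -1.69 (SE 0.224, adjusted p = 0.000881), and a second Irgm1 probe gave -1.76 (adjusted p = 0.00517).

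The other named interferon genes had interactions between -3.71 and -0.99. They were Ifit3b (well above background on 1 of 5 WT arrays at 0 Gy), Oasl1 and Oasl2 (2'-5' oligoadenylate synthetase-like proteins), Rtp4, the signal carriers Stat2 and Irf9, and the GTPases Gbp7, Irgm2 and Ifi47. Oasl1 changed by -3.22 (SE 0.448), with KO-labelled replicate 6 overlapping WT at 7 Gy, and Rtp4 by -2.27 (SE 0.408). Stat2 rose by 1.28 in WT, and its KO-labelled change of -0.42 did not pass the test (adjusted p = 0.1). Gbp7 rose by 1.73 in WT and changed by -0.03 in KO-labelled mice (adjusted p = 0.93). The Ifi47 interaction of -0.99 lost its call in 8 other settings, among them median scaling, leaving out the 4 arrays whose repeat spots varied by over 10% (noisy arrays), and leaving out KO-labelled 0 Gy replicate 2 or 5 or WT 0 Gy replicate 1 alone.

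Some interferon-stimulated genes differed between the labels before irradiation. Of the 16 genes called between the labels at 0 Gy, 15 were higher in KO-labelled mice, among them the interferon-stimulated genes Cmpk2, Ifi27, Ifi47 and Xaf1 (chosen here after their values were seen). Ifi47 was higher by 1.51 at 0 Gy (SE 0.214, adjusted p = 0.00306) and Xaf1 by 1.08 (SE 0.186, adjusted p = 0.0163). The 0 Gy arrays enter both this difference and the interaction, so a high KO-labelled value at 0 Gy by itself lowers the interaction. Over the antiviral list the median label difference was 0.68 at 0 Gy and -0.75 at 7 Gy. For Irgm1 the difference was 0.84 at 0 Gy (adjusted p = 0.066) and -0.85 at 7 Gy (adjusted p = 0.00031).

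**Figure D3:**
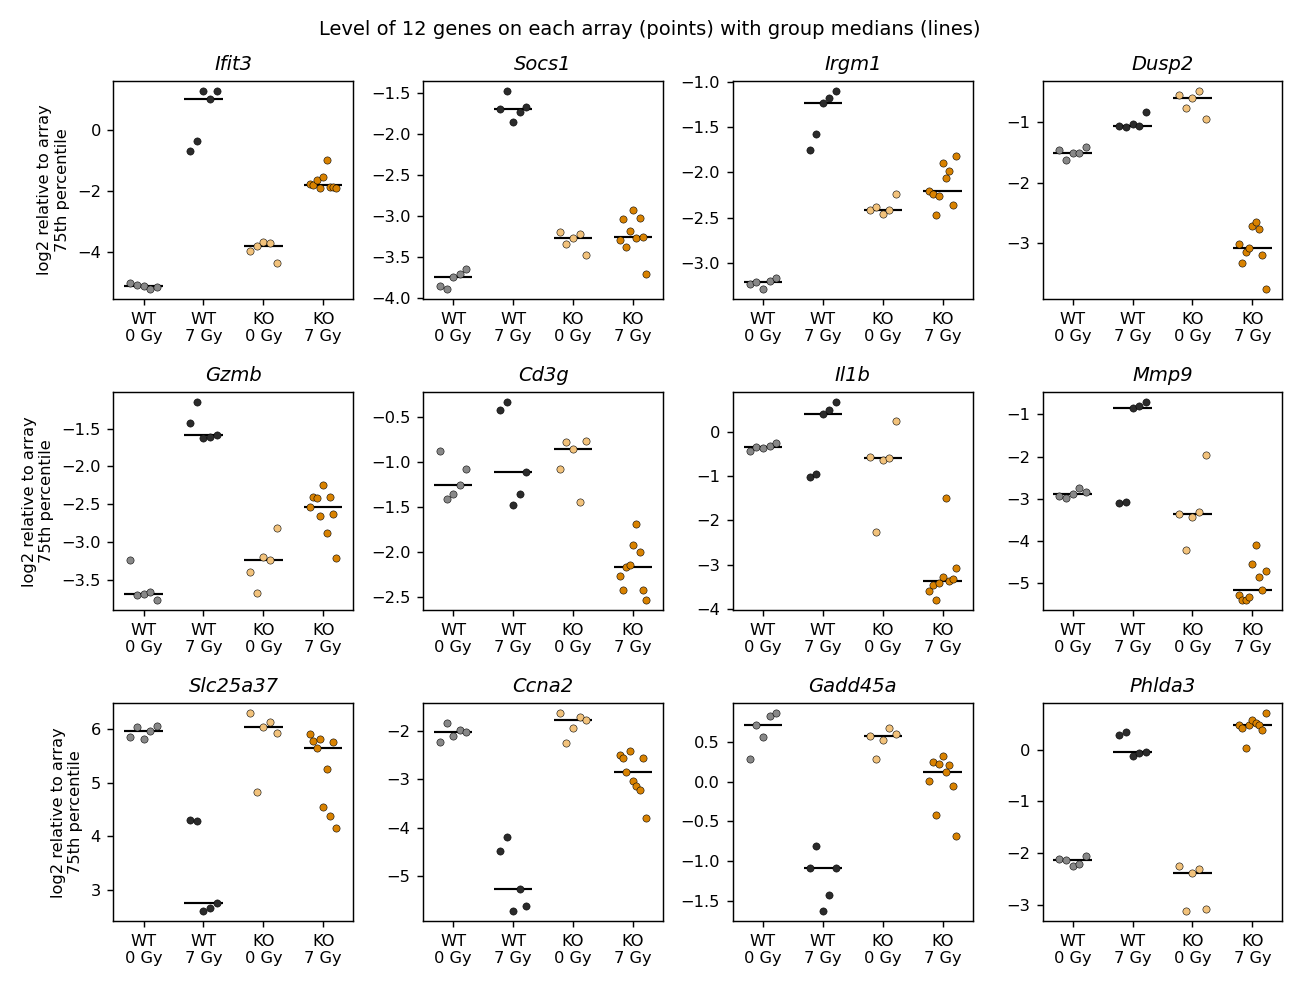
Level of 12 genes on each of the 24 arrays (vertical axis, log2 relative to the array's 75th percentile; 1 point per array, bars at group medians, groups along the horizontal axis). Ifit3, Socs1 and Irgm1 are higher in KO-labelled arrays at 0 Gy and lower at 7 Gy, while Slc25a37 and Ccna2 are lowest in WT at 7 Gy.

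Genes of cytotoxic lymphocytes were among those with lower interactions. Of 22 NK and cytotoxic genes, 12 were lower and 0 higher (18 lower with the replicate block), against 9.91% lower among all genes and 25.8% with the block, with a median interaction of -1.30, or -1.04 relative to all genes. The median WT response was +0.63 and the KO-labelled response -0.53, and the list median ran from -1.37 to -1.10 over the 5 slides. Of 28 T cell markers 8 were lower (17 with the block), with a median of -0.84, and of 13 genes of MHC class I presentation 5 were lower (9 with the block), with a median of -0.74. Under median scaling 7 of the 22 NK and cytotoxic genes and 4 of the 28 T cell markers were lower (5.92% of all genes). Of the 13 class I genes 3 were lower under it. Without WT 7 Gy replicates 3 to 5 the medians of these lists, in the same order, were -1.68, -1.33 and -0.705. Of 10 genes of T cell activation and tolerance 2 were lower, Icosl and Cd69 (6 with the block, 1 under median scaling). The list median was -0.91, and -1.18 without WT 7 Gy replicates 3 to 5.

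Dusp2, a phosphatase of activated lymphocytes that removes phosphate from MAP kinases, had the smallest adjusted p of the genes named here. Its WT arrays read -1.46, -1.62, -1.51, -1.52 and -1.42 at 0 Gy and -1.06, -1.08, -1.03, -1.07 and -0.84 at 7 Gy (probe at chr2:127163930-127163989, mm9). KO-labelled arrays read -0.55, -0.76, -0.61, -0.49 and -0.96 at 0 Gy and -3.76, -3.08 and -2.65 at 7 Gy. The 2 labels did not overlap at either dose, and they changed order between the doses. Dusp2 fell by 2.36 in KO-labelled mice (SE 0.175) and changed by +0.49 in WT (SE 0.206, adjusted p = 0.105), an interaction of -2.84 (SE 0.27, adjusted p = 2.02e-05) that lay between -3.09 and -2.33 on the slides.

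Gzmb, the granzyme that cytotoxic cells pass into their targets, rose under both labels, by 2.07 in WT and 0.65 in KO-labelled mice. It read -3.24, -3.70, -3.69, -3.66 and -3.77 in WT at 0 Gy and -1.43, -1.15, -1.62, -1.61 and -1.59 at 7 Gy. KO-labelled arrays read -3.39, -3.67, -3.20, -3.24 and -2.81 at 0 Gy and -3.21, -2.53 and -2.25 at 7 Gy. All WT arrays were above all KO-labelled arrays at 7 Gy, and the interaction was -1.41 (SE 0.284, adjusted p = 0.00497), not called in the authors' deposited value table (adjusted p = 0.0687).

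The inhibitory and activating NK receptors Klra7 (-1.73), Klra8 (-1.61) and Klrd1 (-1.56) were lower as well. Klra8 fell by 1.24 in KO-labelled mice, and its WT change of +0.37 did not pass the test (adjusted p = 0.391). Klra genes are close copies of each other, so their probes may read several members. Among T cell genes, the receptor subunit Cd3g fell by 1.26 in KO-labelled mice and changed by +0.07 in WT (adjusted p = 0.912), an interaction of -1.32 (SE 0.307, adjusted p = 0.00987).

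In MHC class I presentation the 5 lower genes were Nlrc5, the factor that drives class I genes, the peptide transporters Tap1 and Tap2, the immunoproteasome subunit Psmb9 and H2-K1. Tap2 read -0.52, -0.24, -0.45, -0.63 and -0.15 in WT and -1.98, -1.63 and -0.81 in KO-labelled arrays at 7 Gy, with no overlap. Its interaction was -1.33 (SE 0.321, adjusted p = 0.0122). The Nlrc5 call (-1.70) ended in 9 other settings, median scaling among them, and a second Nlrc5 probe gave -0.22 (adjusted p = 0.817).

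B cell and class II genes, with the largest median falls of the 34 lists, had few calls in the interaction. B cell markers had median responses of -4.30 in WT and -4.63 in KO-labelled mice, and 1 of 22, the inhibitory receptor Cd72 (-1.64), was lower. The median interaction was -0.18 with a median 95% half-width of 1.30 per gene, so smaller differences in a typical gene were not detectable. Of 10 class II genes 0 were called (0 also with the replicate block and with median scaling), with a median of -0.06 and a half-width of 1.24. Both medians changed sign across slides, from -1.54 to 1.13 and from -0.70 to 0.60.

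**Figure D4:**
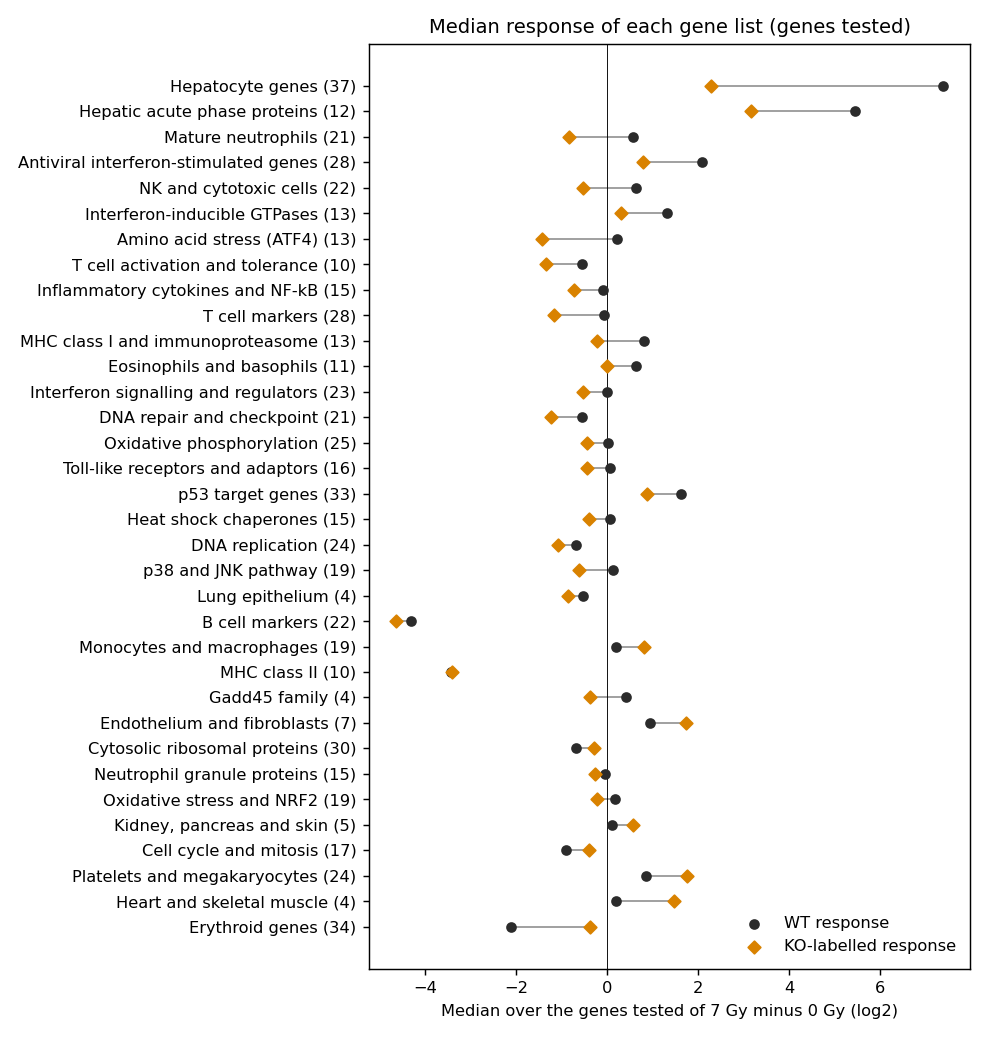
Median response to 7 Gy of the tested members of each of 34 gene lists (horizontal axis, log2), with 1 point for WT and 1 for KO-labelled mice joined by a line. The 2 points lie far apart for hepatocyte and acute phase genes and close together for class II genes (-3.43 and -3.40).

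Of 21 genes of mature neutrophils 9 were lower (42.9%, against 9.91% of all genes) and 0 higher. With the replicate block 13 were lower (25.8% of all genes), and under median scaling 4 (5.92% of all genes). The median interaction was -1.46, or -1.2 relative to all genes. Mature neutrophil values differed between the WT sets: the list median ran from -3.00 on slide 5 to +0.38 on slide 2. It was -0.34 without WT 7 Gy replicates 3 to 5. Without replicates 1 and 2 it was -1.87, with 13 genes called. Of 15 inflammatory cytokine and NF-kB genes 5 were lower (8 with the block), with a median of -0.91 and slide values between -0.92 and -0.38. Their median was -0.83 without WT 7 Gy replicates 3 to 5 and -0.86 without replicates 1 and 2.

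Il1b, the fever-inducing cytokine of neutrophils and monocytes, read -0.44, -0.35, -0.36, -0.33 and -0.26 in WT at 0 Gy and -1.03, -0.95, 0.40, 0.48 and 0.67 at 7 Gy. KO-labelled arrays read -0.57, -2.26, -0.64, -0.59 and 0.23 at 0 Gy and -3.80, -3.37 and -1.49 at 7 Gy. Every KO-labelled array was below every WT array at 7 Gy, and WT replicates 1 and 2 lay below their controls while replicates 3 to 5 lay above them. The interaction was -2.88 (SE 0.628, adjusted p = 0.00748). Without WT 7 Gy replicates 3 to 5 it was -1.74.

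Mmp9, the gelatinase of neutrophil granules, had the same pattern, with -3.10, -3.07, -0.84, -0.79 and -0.71 in WT at 7 Gy and -5.40, -5.15 and -4.08 in KO-labelled arrays. Its interaction was -3.23 (SE 0.617, adjusted p = 0.00405) and -1.5 without WT 7 Gy replicates 3 to 5. Sorl1, a sorting receptor, gave -3.03 (SE 0.491, adjusted p = 0.00187), and its second probe -3.26. The alarmin S100a8 gave -2.04 (SE 0.53, adjusted p = 0.0176), with values between -3.44 and 0.07 over the slides.

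Of 15 neutrophil granule proteins 1 was higher (6.67%) and 2 lower (13.3%), against 2.54% and 9.91% of all genes. Their median was +0.28 and changed sign in 2 of 44 settings. The lower members were Mmp9 and Pglyrp1 (-2.11), and the higher one was the lysozyme Lyz2 (+1.33), whose call ended in 21 other settings. Of 11 eosinophil and basophil genes 3 were lower (27.3%, against 9.91% of all genes) and 0 higher, with 8 estimates negative and 3 positive. Their median was -0.69 and changed sign across slides, from -1.5 to 0.32. Among them Siglecf, an inhibitory receptor of eosinophils, was lower by 3.25 (SE 0.464, adjusted p = 0.000881). It read -4.97, -5.35, -4.13, -3.96 and -3.72 in WT at 7 Gy, and 2 of 9 KO-labelled arrays were well above background there, so the size of its KO-labelled change rests mostly on dim values. Monocyte genes gave 1 higher (Lyz1, 5.26%) and 3 lower calls of 19 (Cx3cr1, Ear2 and Ly6c1, 15.8%), against the same 2.54% and 9.91%. Their median changed sign in 12 of 44 settings.

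Red cell genes had the opposite direction. Of 34 erythroid genes 16 were higher and 0 lower, against 2.54% higher among all genes, and 32 of 34 estimates were positive (23 higher with the replicate block, 20 under median scaling). The median WT response was -2.11 and the KO-labelled response -0.38, a median interaction of 1.30, or 1.56 relative to all genes. The list median lay between 0.85 and 1.61 over the slides and between 0.68 and 1.67 over the 44 other settings. It was 0.73 without WT 7 Gy replicates 3 to 5, and 1.48 without replicates 1 and 2, with 21 genes called in the latter.

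Slc25a37, which carries iron into mitochondria for heme, read 5.86, 6.05, 5.82, 5.96 and 6.06 in WT at 0 Gy and 4.31, 4.28, 2.59, 2.65 and 2.75 at 7 Gy. KO-labelled arrays read 6.30, 4.83, 6.04, 6.13 and 5.93 at 0 Gy and 4.15, 5.64 and 5.92 at 7 Gy. WT replicates 3 to 5 were lowest, replicates 1 and 2 were within the KO-labelled range, and the KO-labelled doses overlapped. It fell by 2.88 in WT (SE 0.439) and its KO-labelled change of -0.50 did not pass the test (adjusted p = 0.288), an interaction of 2.38 (SE 0.576, adjusted p = 0.0123). A second probe gave 1.60 (adjusted p = 0.0447).

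Fech, which inserts iron into heme, fell by 1.56 in WT and changed by +0.50 in KO-labelled mice (adjusted p = 0.198), an interaction of 2.05 (SE 0.476, adjusted p = 0.00983). Slc4a1, the anion exchanger of the red cell membrane, fell under both labels, by 3.60 in WT and by 1.44 in KO-labelled mice. Its interaction of 2.16 was no longer called without the 4 noisy arrays. Bpgm, the enzyme that makes 2,3-bisphosphoglycerate in red cells, gave 2.07 (SE 0.494, adjusted p = 0.0117). The other called members included Gata1 and Tal1, transcription factors of red cell formation, and Rhag, Rhd, Kel and Gypc, surface proteins of red cells. Rhag, Rhd and Kel fell under both labels, and less in KO-labelled mice. Gata1 (0.29 in WT, 1.64 in KO-labelled mice), Tal1 (0.57 and 1.675) and Gypc (0.57 and 1.41) had positive changes under both labels.

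Platelet genes had 4 higher (16.7%, against 2.54% of all genes) and 0 lower of 24, with a median of 0.91. With the replicate block 10 were higher (13.7% of all genes), and under median scaling 11 (3.98% of all genes). Gp1bb, a subunit of the von Willebrand factor receptor, read 0.36, -0.06, 0.12, 0.31 and 0.21 in WT and -0.16, -1.87, -0.15, -0.30 and -0.74 in KO-labelled arrays at 0 Gy. At 7 Gy it read 0.70, 0.82, 1.08, 1.2 and 1.33 in WT and 1.18, 1.41 and 2.35 in KO-labelled arrays. KO-labelled arrays were all below WT before irradiation and overlapped WT after it. Its interaction of 1.40 (SE 0.418, adjusted p = 0.0343) was no longer called in 14 other settings, including that without KO-labelled 0 Gy replicate 2 or 5, and its other 2 probes gave 0.27 (adjusted p = 0.795) and 1.31 (adjusted p = 0.322). The calls for Clec1b (1.25) and Nrgn (1.13) each ended in 10 settings, and the list is described by its direction: 21 of 24 estimates were positive.

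Cell division genes gave 5 higher (29.4%, against 2.54% of all genes) and 0 lower of 17, and 6 higher with the replicate block. Their median was 0.73, with slide values between 0.74 and 1.52, and -0.06 with normexp. It was 0.25 without WT 7 Gy replicates 3 to 5 and 0.79 without replicates 1 and 2. Ccna2, the cyclin of S phase and entry into mitosis, read -2.23, -1.85, -2.10, -1.98 and -2.02 in WT at 0 Gy and -4.48, -4.19, -5.73, -5.27 and -5.61 at 7 Gy. KO-labelled arrays read -1.64, -2.25, -1.94, -1.72 and -1.77 at 0 Gy and -3.81, -2.85 and -2.41 at 7 Gy. The labels overlapped at 0 Gy and did not overlap at 7 Gy, with WT lower. Ccna2 fell by 3.19 in WT and by 0.99 in KO-labelled mice, an interaction of 2.19 (SE 0.395, adjusted p = 0.00318). The interaction was 1.29 without WT 7 Gy replicates 3 to 5 and 2.49 without replicates 1 and 2.

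Ube2c, which marks mitotic proteins for destruction, gave 1.81 (SE 0.403, adjusted p = 0.0081), and its second probe 1.75. Mki67, a marker of dividing cells, gave 1.70 (SE 0.369, adjusted p = 0.00724), but a second Mki67 probe gave 0.64 (adjusted p = 0.684). DNA replication genes did not share this direction, with 0 higher and 1 lower of 24. Their median was -0.33, or -0.07 relative to all genes. The lower gene was Tk1, which was well above background on 2 of 9 KO-labelled arrays at 7 Gy.

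**Figure D5:**
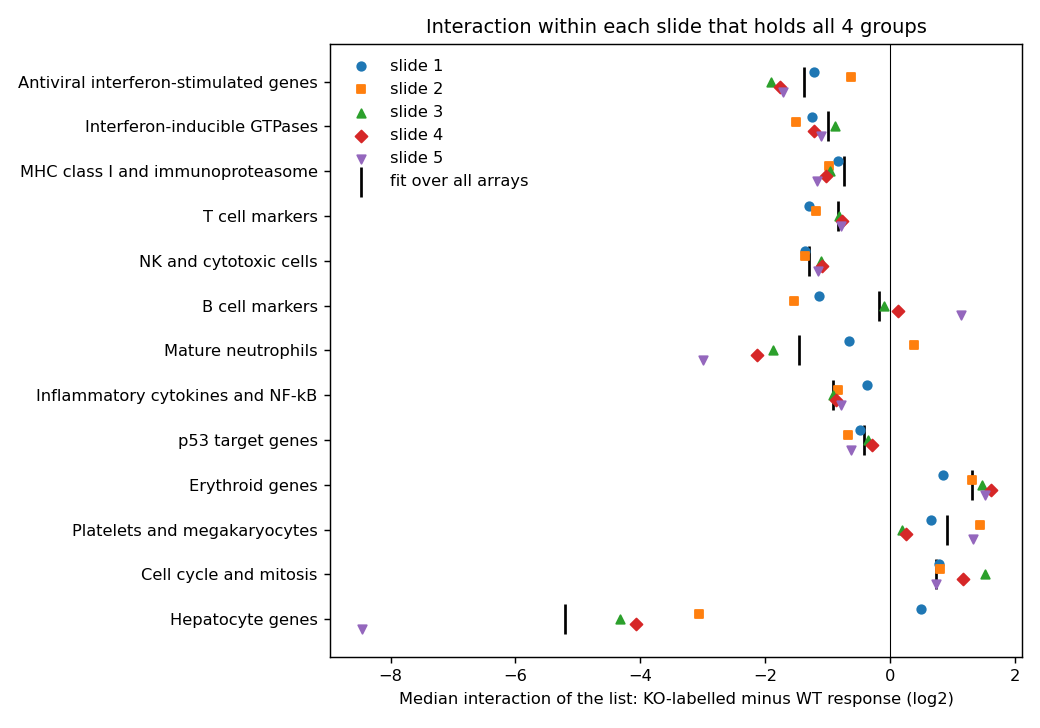
Median interaction of 13 gene lists computed within each of slides 1 to 5, which hold 1 array of each of the 4 groups (horizontal axis, log2; 1 point per slide, with a vertical mark at the median of the fit over all arrays). Antiviral, NK and T cell medians are below 0 and erythroid medians above 0 on each slide, while the hepatocyte median runs from 0.50 to -8.46. Slide values are not relative to the all-gene median, which was -0.528 on slide 2.

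p53 target genes, which rise with DNA damage, had few called differences. The median response of 33 targets was 1.63 in WT and 0.87 in KO-labelled mice, with 1 higher and 4 lower interactions (3.03% and 12.1%, against 2.54% and 9.91% of all genes) and a median of -0.42, or -0.16 relative to all genes. With the replicate block 3 were higher and 10 lower. Phlda3, an inhibitor of Akt, was the higher member: it rose by 2.16 in WT and 3.17 in KO-labelled mice, an interaction of 1.0 (SE 0.261, adjusted p = 0.0175). The lower members were the death gene Pmaip1 (-1.84), the co-stimulator Cd80 (-1.68), the kinase Plk3 (-1.44) and the growth inhibitor Btg2 (-1.41). Without WT 7 Gy replicates 3 to 5 their interactions were -0.71, -0.6, -0.85 and -0.67, in the same order. The Plk3 call ended in 17 other settings, that of Pmaip1 in 2, and those of Cd80 and Btg2 in 3 each.

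Other central genes of the p53 response were not called. Cdkn1a, the cell cycle inhibitor p21, rose by 3.45 in WT and 4.96 in KO-labelled mice, an interaction of 1.51 (95% interval 0.31 to 2.71, adjusted p = 0.0865). It read -5.03, -5.03, -5.44, -5.09 and -5.72 in WT and -7.16, -5.26, -7.52, -7.23 and -5.34 in KO-labelled arrays at 0 Gy, where 3 of 5 KO-labelled arrays were well above background. With the replicate block it was 1.60 (adjusted p = 0.0243), and a second Cdkn1a probe gave -0.50 (adjusted p = 0.784). Mdm2, which degrades p53, gave -0.62 (interval -1.23 to -0.02, adjusted p = 0.159), or -0.72 with the block (adjusted p = 0.00538). The estimates were -0.37 (interval -0.99 to 0.26) for Ccng1, -0.14 (-0.71 to 0.43) for Bax, -0.51 (-1.40 to 0.39) for Trp53 and -0.89 (-2.43 to 0.65) for Myc. At 7 Gy Trp53 was well above background on 4 and Myc on 5 of the 9 KO-labelled arrays. Trp53 had an adjusted p of 0.0207 with the block.

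Among the relatives of Gadd45a, Gadd45b had an interaction of -1.38 (SE 0.413, adjusted p = 0.0342), and the call ended in 14 other settings. It read -3.44, -3.83, -2.12, -2.17 and -2.73 in WT at 7 Gy and -4.91, -4.50 and -3.64 in KO-labelled arrays, so WT replicates 1 and 2 lay in or near the KO-labelled range. Gadd45g rose by 0.97 in KO-labelled mice, and its interaction was 0.35 (95% interval -0.44 to 1.14, adjusted p = 0.579). Of 19 genes of the p38 and JNK pathway 0 were higher and 3 lower (Mapk13, Map2k4 and Map3k1; 8 lower with the block, 1 under median scaling), against 9.91% lower among all genes, 25.8% with the block and 5.92% under median scaling. Map3k1, a kinase at the head of the JNK cascade, gave -1.09 with -1.05 at a second probe. Of 21 DNA repair and checkpoint genes 3 were lower (Xrcc5, Mdc1 and Rad50; 10 with the block, 0 under median scaling), 14.3% against the same 9.91%, each losing its call in 10 or more settings.

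Genes of amino acid stress, controlled by the factor ATF4, had a median interaction of -0.97, with slide values between -1.21 and -0.69. Of 13 genes 4 were lower (30.8%, against 9.91% of all genes), and 6 with the block (25.8% of all genes). Asns, which makes asparagine, read -3.46, -3.69, -3.68, -3.72 and -3.60 in WT and -1.25, -2.71, -1.28, -1.32 and -1.27 in KO-labelled arrays at 0 Gy. At 7 Gy it read -5.08, -4.81, -4.84, -4.93 and -4.59 in WT and -6.05, -4.92 and -4.52 in KO-labelled arrays. The labels differed before irradiation, with KO-labelled arrays higher by 1.98 (SE 0.339, adjusted p = 0.0163), and overlapped after it. The interaction was -2.24 (SE 0.445, adjusted p = 0.0049). The other called members were Trib3, which was well above background on 1 of 9 KO-labelled arrays at 7 Gy, the mTOR inhibitor Ddit4 (-1.42) and the amino acid carrier subunit Slc3a2 (-0.97).

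Cnn1, a smooth muscle calponin, read -4.16, -4.17, -4.19, -4.24 and -4.24 in WT and -5.86, -6.66, -6.49, -6.19 and -7.02 in KO-labelled arrays at 0 Gy. At 7 Gy it read -4.0, -3.99, -4.02, -3.99 and -4.01 in WT and -4.38, -3.73 and -2.64 in KO-labelled arrays. WT arrays stayed within a narrow range at both doses, and the KO-labelled arrays started below them and reached them. At 0 Gy the label difference was -2.34 (SE 0.288, adjusted p = 0.00106). Cnn1 rose by 2.87 in KO-labelled mice, an interaction of 2.66 (SE 0.378, adjusted p = 0.000881). Bmp2, a growth factor, rose by 2.10 in KO-labelled mice, and its WT change of -0.25 did not pass the test (adjusted p = 0.724), an interaction of 2.35 (SE 0.461, adjusted p = 0.0048).

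Antioxidant genes were divided, with 4 higher and 1 lower of 19 and a median of +0.29. Sod2, the mitochondrial superoxide dismutase, fell by 2.52 in WT and by 1.24 in KO-labelled mice, an interaction of 1.29 (SE 0.284, adjusted p = 0.00766). At 7 Gy it read -0.16, -0.12, -0.61, -0.60 and -0.33 in WT and 0.49, 1.02 and 1.16 in KO-labelled arrays, with no overlap. The glutathione peroxidases Gpx1 (1.5) and Gpx4 (1.14) were also higher. Of 25 oxidative phosphorylation genes 2 were higher, Cox6c (1.74) and Atp5b (1.49), and 1 lower, Uqcrc2 (-0.80), with 11 lower under the block. Of 15 heat shock chaperones 3 were lower (6 with the block), and of 30 ribosomal proteins 1 was higher (Rplp0; 6 with the block). For comparison, 9.91% of all genes were lower and 2.54% higher, and with the block 25.8% and 13.7%.

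Transcripts of liver cells also had lower interactions. Of 37 hepatocyte genes 29 had a lower interaction and 0 a higher one (24 lower with the replicate block), with a median of -5.21. Of 12 acute phase genes of liver 6 were lower (4 with the block), with a median of -2.69. Among all genes 9.91% were lower, and 25.8% with the block. Relative to all genes the 2 list medians were -4.95 and -2.43. Of each list 5 genes were well above background on all arrays, and the others could enter the test through the group where they were high, so these counts and medians are a description set against dim probes. On the WT 7 Gy arrays the median level of the hepatocyte list was -3.08, -3.02, 0.85, 0.93 and 1.10, against -8.10 to -7.70 in WT at 0 Gy. In KO-labelled arrays it was -7.98, -4.89, -8.04, -7.88 and -4.11 at 0 Gy and -4.89, -3.25 and -2.68 (lowest, median, highest) at 7 Gy. WT 7 Gy replicates 1 and 2 were thus within the KO-labelled 7 Gy range, and replicates 3 to 5 were above it. Without replicates 3 to 5 the list median was -1.99, and on slide 1 it was +0.50.

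For Ambp, a carrier protein of liver that was above background on all 24 arrays, the interaction was -4.85 (SE 1.05, adjusted p = 0.00717), and 0.23 on slide 1 against -7.85 on slide 5. The part of these liver transcripts in the interferon, lymphocyte, neutrophil and erythroid results was not tested. On slide 1, where the hepatocyte median was above 0, the mature neutrophil median was -0.66, against 0.38 on slide 2 and -1.88, -2.14 and -3.00 on slides 3 to 5. The erythroid median of 0.85 on slide 1 was its lowest, and the antiviral median was -1.23 there, between -0.63 on slide 2 and -1.91 on slide 3. The NK and T cell medians were -1.36 and -1.30 on slide 1, and -1.16 and -0.785 on slide 5. Markers of other tissues gave few calls: 0 of 4 for heart and skeletal muscle, 1 of 4 for lung (Lamp3, lower), 0 of 5 for kidney, pancreas and skin, and 0 of 7 for endothelium and fibroblasts, against 12.4% of all genes. With the replicate block lung had 1 higher and 2 lower, kidney, pancreas and skin 2 higher, endothelium and fibroblasts 1 higher, and muscle 0 of 4. The muscle half-width was 2.77 per gene, so its 0 of 4 does not show equal responses. The muscle list level was -2.10 and -2.06 on KO-labelled 7 Gy replicates 5 and 7. It was -7.14 to -6.02 on the other KO-labelled 7 Gy arrays and -7.15 to -6.49 in WT at 7 Gy. The muscle median was 4.42 on slide 5 and -0.61 to 1.03 on slides 1 to 4. The part of these muscle transcripts in the other results was not tested.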

How the data were processed

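Total RNA from 24 blood samples was hybridised to 1-colour Agilent arrays and read with Agilent Feature Extraction 12.0.2, per the submitters' processing notes. The intensity used is the processed signal of the deposited scanner files, background-subtracted per the file headers. A second deposited file, the value table, is on a log2 scale; 12863 of its 12900 entries matched a probe. Its columns differ from the log2 processed signal by a constant of up to 1.54 per array, with column medians from 5.75 to 7.18, so its scale is known and its centring, whose rule is not given, differs by array. It served as an alternative.

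Control spots and outlier spots were left out and repeat spots averaged. Signals were divided by the array's 75th percentile, taken over 7857 probes that exceeded background on each of the arrays, then log2 was taken. A probe entered the test if 5 or more arrays had it well above background, with the brightest probe standing for a gene. The 4 groups were fitted together in limma 3.58.1 (R 4.3.3) with Benjamini-Hochberg adjustment over 15787 genes. Probe names were updated through RefSeq by accession (28663 probes), symbol (3300) or older symbol (160), and 7306 kept the files' name. The fit was tested on simulated data.

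The genes named are the 10 largest interactions in each direction among called genes on all arrays or in a whole group, up to 3 called members per list, and 10 genes of the damage response. Some genes are not reported here. The members and gene lists were chosen with earlier results of these data known. Over 30 pairs of arrays with the same replicate number, deviations from group means correlated at a median of 0.26 (-0.20 to 0.72), against -0.07 over 120 other pairs, and file headers place same-numbered arrays of replicates 1 to 5 on 1 slide. Alternatives changed scaling, background, filter, probe rule, blocks, weights and the arrays used.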

Additional observations from a re-analysis of the deposited data

Results flagged for a closer look

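The interaction itself is a difference between groups in the same contrast: 401 genes were higher and 1564 lower in the KO-labelled response than in the WT response by limma's test of that difference.

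The remaining items are arrays that stood apart from others of their group by Dixon's test, 38 in 256 groups of values examined; chance alone marks about 1 in 20 groups. All levels are log2 relative to the array's 75th percentile, and a list level is the median over its genes. In KO-labelled 0 Gy replicate 2 these were the Gadd45 family (-2.87), mature neutrophils (-2.85), eosinophils and basophils (-4.17), amino acid stress genes (-2.68), and the genes Slc25a37 (4.83), Prxl2a (3.61), Slc38a5 (-0.35), Bpgm (3.52) and Gadd45g (-4.06). KO-labelled 0 Gy replicate 5 stood apart in Toll-like receptor genes (-3.21) and Mdm2 (-1.12).

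In KO-labelled 7 Gy replicate 6 they were B cell markers (-6.74), class II genes (-5.37), class I genes (-0.76), mature neutrophils (-0.98), endothelium and fibroblasts (-5.10), Oasl1 (-0.62), Sorl1 (-2.27) and Il1b (-1.49). Replicate 3 of that group stood apart in the Gadd45 family (-1.70), antiviral genes (-3.13), cell division (-3.59), lung (-4.62), kidney, pancreas and skin (-4.13) and Phlda3 (0.0237). Replicate 9 did so in Prxl2a (2.18), Slc4a1 (1.62), Bpgm (3.50) and H2bc22 (-4.51).

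In WT at 0 Gy replicate 1 stood apart in class II genes (-0.56), Toll-like receptor genes (-4.13), Bax (-1.83) and Myc (-7.36), replicate 3 in Mup4 (-3.12) and replicate 5 in T cell activation genes (-3.62). In WT at 7 Gy replicate 1 did so in interferon signalling genes (-2.04), and replicate 5 in Dusp2 (-0.84) and Cdkn1a (-2.20).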

How the results depend on the processing

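Counts are genes called, then higher and lower, against 1965, 401 and 1564. Quantile normalization gave 866 (514 lower), median scaling 629 higher and 935 lower, the 75th percentile over all probes 1265 (778 and 487), the values the authors deposited 409 (149 and 260), and normexp background correction 0 (857 at an unadjusted p below 0.05 in limma). Using only probes above background everywhere gave 958 lower, and no filter 714 (100 and 614). Slide as a fixed block gave 5164 (1711 and 3453), as a random block 4027 (909 and 3118), the replicate block 6231 (2157 and 4074), and array weights 7400 (2503 and 4897). Without the 4 noisy arrays the count was 1143 (160 and 983), and with KO-labelled 7 Gy replicates 1 to 5 alone 3764 (870 and 2894). Among settings chosen after seeing the data, averaging arrays correlated above 0.99 gave 0 (1585 unadjusted), leaving out WT 7 Gy replicates 3 to 5 gave 40 (0 and 40), leaving out WT 7 Gy replicates 1 and 2 gave 654 higher, and leaving out KO-labelled 7 Gy replicates 5, 6, 7 and 9 gave 5465 (1406 and 4059). Averaging and leaving out arrays leave fewer samples. For the other settings the cause was not tested. Leaving out 1 array gave 1152 to 3066 calls, 195 to 687 higher and 954 to 2379 lower. The count moved by over 1.5 times without WT 7 Gy replicate 3 (1246), 4 (1216) or 5 (1152), WT 0 Gy replicate 4 (1217), KO-labelled 0 Gy replicate 5 (1175) and KO-labelled 7 Gy replicate 9 (3066), and the higher calls also without KO-labelled 0 Gy replicate 2 (259) and WT 0 Gy replicates 1 (262) and 5 (264). Of 115 named called genes 0 were called with normexp or with averaging at 0.99. In the 41 settings other than these and the fit without WT 7 Gy replicates 3 to 5, 43 lost no call. Changes of sign were Trim58 (-0.0304) and Cdca3 (-0.0628) with normexp, both not above background in WT at 7 Gy, Gadd45g with array weights (-0.10), without noisy arrays (-0.0645) and without KO-labelled 0 Gy replicate 2 (-0.0535, in a range up to 0.502 over the arrays left out), Ccng1 with the 75th percentile over all probes (0.0042), Myc without noisy arrays (0.0798), and Bax with median scaling (0.0777), the 75th percentile over all probes (0.23), array weights (0.20), without noisy arrays (0.0771) and without WT 7 Gy replicates 1 and 2 (0.0202). The replicate block ended 4 of the 115 named calls. The signal limits low genes, since 25.7 to 50.9% of probes per array were well above background.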
